A study of Saccharomyces cerevisiae with 4 samples.

Results

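The interaction of XRN1 loss and a rebuilt RNA interference (RNAi) pathway was described from small RNA sequencing of budding yeast, Saccharomyces cerevisiae. For each gene the log2 difference made by deletion of XRN1 was taken once in cells with DCR1 and AGO1 and once in cells without them, and the second was subtracted from the first. A value of 0 means that the changes add up on the log2 scale, a positive value that the gene was higher in the strain with both changes than their sum gives, and a negative value that it was lower. All 5798 listed identifiers entered, of which 5539 had a value of 3.18 or more in at least 1 library and were counted, and 259 did not.

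The small RNAs, of 10 to 40 nucleotides, came from 4 genotypes with 1 library and 1 strain each. Cells lacking XRN1 and carrying DCR1 and AGO1 are called xrn1 RNAi here, cells with XRN1 that carried DCR1 and AGO1 are called RNAi, cells lacking XRN1 without the added genes are called xrn1, and wild-type cells are called WT. No further allele or agent shared by the strains is named in the labels, and neither are the promoters that drive DCR1 and AGO1. The series title gives the purpose as mapping double-stranded RNA with the rebuilt pathway.

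Budding yeast has lost RNAi. In species that have it, Dicer, here from DCR1, cleaves double-stranded RNA into small RNAs, and Argonaute, here from AGO1, is guided by them to matching transcripts. Xrn1 is the main cytoplasmic exonuclease that degrades decapped mRNA from the 5′ end, and it also removes many antisense non-coding transcripts, which can pair with mRNA.

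The libraries held 7686801 reads over genes in xrn1 RNAi, 1801407 in RNAi, 2825322 in xrn1 and 627607 in WT. On the deposited scale, which is used for all values below, 1 read was worth 0.0762 in xrn1 RNAi, 0.318 in RNAi, 0.330 in xrn1 and 1 in WT. The median nuclear gene had a value of 19.2 in xrn1 RNAi, 11.1 in RNAi, 70.7 in xrn1 and 48 in WT. The mitochondrial share of reads was 0.0394% in xrn1 RNAi, 0.361% in RNAi, 33.1% in xrn1 and 26.7% in WT. Log2 differences are of log2(value + 3.18), a scale that compresses changes among low values. Where only the libraries with DCR1 and AGO1 are low, it compresses 1 of the XRN1 changes more than the other. The interaction can then become smaller or larger in size. ECO1 had 4.40, and 6.12 without the added 3.18, whereas ATP7, with 2 reads in RNAi, had -1.84, and 0.12 without it. With 1 library per genotype the interaction takes the only degree of freedom left beyond the XRN1 and DCR1 AGO1 changes. It cannot be told apart from variation between libraries, no p-value is given, and words such as higher, rose and fell describe differences between libraries only. Intervals are 95% intervals of counting error alone, for the interaction without the added 3.18. They treat each read as independent. No molecular identifiers are mentioned, so reads copied from the same molecule cannot be told apart and the intervals may be too narrow.

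The deleted gene, XRN1 (YGL173C), checked the labels. It had 0 reads in xrn1 RNAi, which allows a value of up to 0.229, and 12.4 in RNAi, against 0.991 (3 reads) in xrn1 and 148 in WT. Both deletion libraries were at or near the floor, so its interaction of 2.89 reflects the lower value in RNAi than in WT and is not a response to the deletion.

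Across all genes counted, the XRN1 changes added up to within 2-fold for 2900 of 5539 genes (52.4%). The interaction was 1 or more on the log2 scale, that is 2-fold or more above additive, in 1287 genes (23.2%), and -1 or less in 1352 genes (24.4%). It reached 2 or more in 426 genes and -2 or less in 392. The spread over genes was wide, with quartiles of -0.97 and 0.91 and a range from -6.16 to 6.16, around a median of -0.03 for nuclear genes. Among the 4111 genes with 10 or more reads in every library, 933 were above and 1039 below, so the departures were not limited to genes of few reads. Counts of calls in each direction depend on how libraries are scaled: 48.8% of the calls were positive on the deposited scale, 72.1% after division by library sums, and 66.4% after division by the sums over nuclear genes. The nuclear median was 0.50 and 0.38 with these scalings. Counted relative to that median, 1308 genes were above and 1312 below on the deposited scale, and 1290 and 1330 with division by the library sum. List medians below are therefore given relative to the nuclear median.

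The XRN1 changes with and without DCR1 and AGO1 share no library. Over the genes counted, which are not independent replicates, their Pearson correlation was 0.32 and their Spearman correlation 0.31. Of the 5539 genes, 794 were 2-fold or more higher without XRN1 in both backgrounds and 100 lower in both, while 1918 stayed within 2-fold in both. In 812 genes the deletion went with a higher value in cells with DCR1 and AGO1 and with a change under 2-fold in cells without. In 971 genes it was the reverse, a higher value in cells without the added genes and under 2-fold in cells with them. Opposite changes of 2-fold or more were rarer. In 75 genes the value was higher in xrn1 RNAi than in RNAi and lower in xrn1 than in WT (median interaction 3.31), and in 66 genes lower in xrn1 RNAi than in RNAi and higher in xrn1 than in WT (median -3.02). The balance of these classes depends on the setting: they held 176 and 25 genes after division by library sums, 146 and 33 after division by nuclear sums, and 13 and 15 with a pseudocount of 31.8. Read along the other axis, the change on addition of DCR1 and AGO1 was higher in cells lacking XRN1 and lower in cells with it for 65 genes, and the reverse for 37.

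**Figure D1:**
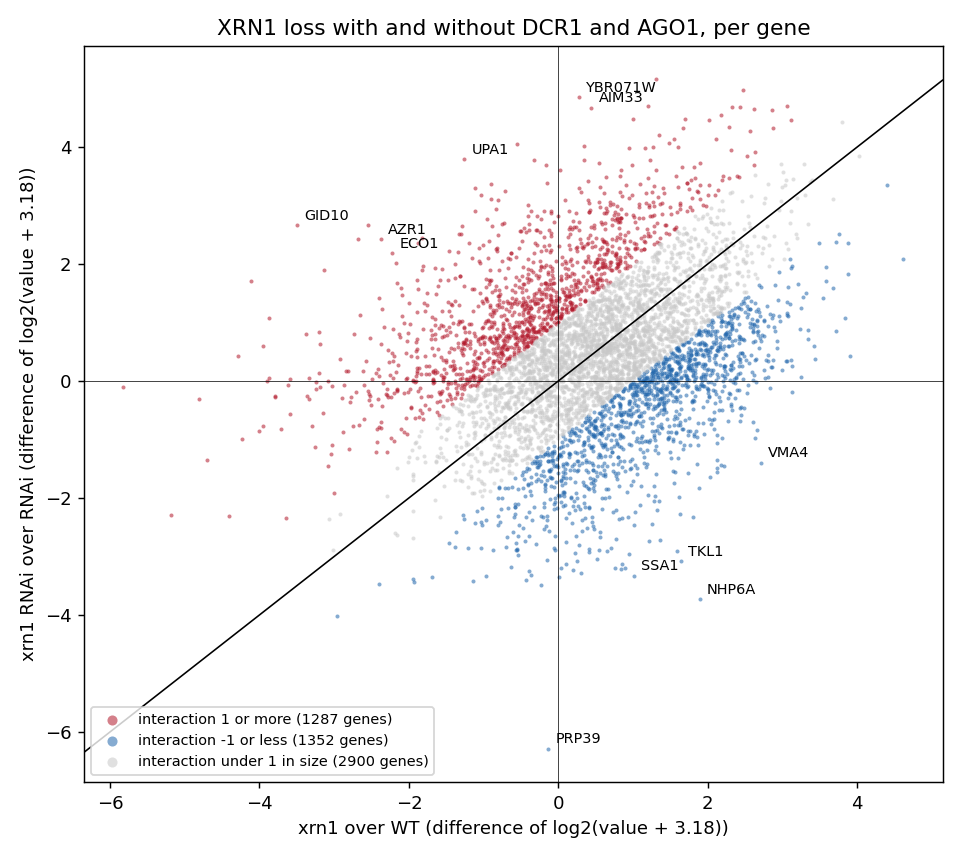
Each point is 1 of the 5539 counted genes. The vertical axis is the log2 difference of xrn1 RNAi over RNAi and the horizontal axis that of xrn1 over WT, both on the log2(value + 3.18) scale; the diagonal marks changes that add up. Red points lie 1 or more above it (1287 genes), blue points 1 or more below it (1352 genes), and opposite changes lie at the upper left and lower right.

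Of the genes far above additive, several had a value in xrn1 RNAi that was several-fold higher than in RNAi although XRN1 loss alone went with a lower value. GID10 (YGR066C, chromosome VII, 620921 to 621799 of R64, minus strand) encodes a substrate receptor of the GID ubiquitin ligase, which marks gluconeogenic enzymes for degradation. Its value was 73.2 in xrn1 RNAi and 8.89 in RNAi, against 7.60 in xrn1 and 119 in WT. It was thus low in the strains that had only 1 of the changes and high in both others, with log2 differences of 2.66 for xrn1 RNAi over RNAi and -3.50 for xrn1 over WT. The interaction was 6.16, the highest among nuclear genes with a mean value of 31.8 or more; without a pseudocount its counting interval was 6.12 to 7.92. GID8 (YMR135C), a core subunit of the same ligase, had 244 in xrn1 RNAi and 11.8 in RNAi, against 114 in xrn1 and 169 in WT. Here RNAi alone was low, and the interaction was 4.60 (4.39 to 5.52 without a pseudocount).

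The pattern of GID10, low with either change and high with both or neither, was shared by others. AZR1 (YGR224W), a drug transporter gene, had 87.2 in xrn1 RNAi and 13.7 in RNAi, against 9.58 in xrn1 and 63 in WT, an interaction of 4.80. YHC3 (YJL059W), the yeast homolog of human CLN3, had 104 in xrn1 RNAi and 17.8 in RNAi, against 19.8 in xrn1 and 81 in WT, an interaction of 4.23. FYV8 (YGR196C) had 228 in xrn1 RNAi and 53.7 in RNAi, against 61.5 in xrn1 and 288 in WT, an interaction of 4.19. In each of these 3 genes both strains with a single change were at least 3-fold below both others.

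ECO1 (YFR027W) encodes the acetyltransferase that establishes sister chromatid cohesion. Its value was 17 in xrn1 RNAi and 1.27 in RNAi, which is 4 reads, against 22.1 in xrn1 and 115 in WT. Because of the few reads in RNAi its interaction of 4.40 is held down by the pseudocount, and the counting interval without it was 4.63 to 8.05. YPR027C had 34.3 in xrn1 RNAi and 14.6 in RNAi, against 2.64 (8 reads) in xrn1 and 82 in WT, an interaction of 4.95 (5.01 to 7.51 without the pseudocount). ECO1 was lowest in RNAi and YPR027C lowest in xrn1, so the low value behind the interaction lies in a different library for each.

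A second group above additive stood out by a high value in xrn1 RNAi. AIM33 (YML087C) had 1377 in xrn1 RNAi and 50.8 in RNAi, against 104 in xrn1 and 76 in WT; added changes would give 70.2 in xrn1 RNAi. YBR071W had 382 in xrn1 RNAi and 10.2 in RNAi, against 85.2 in xrn1 and 70 in WT. UPA1 (YGR283C) had 469 in xrn1 RNAi and 30.8 in RNAi, against 93.2 in xrn1 and 227 in WT, where added changes would give 11.1. The interactions were 4.23 for AIM33, 4.58 for YBR071W and 5.05 for UPA1, and in all 3 genes xrn1 RNAi had the highest value of the 4 libraries. FPT1 (YKR011C, 4.42), ARO5 (YGL117W, 4.27) and COI1 (YDR381C-A, 4.21) complete the 12 highest, and they too were lowest in RNAi and highest in xrn1 RNAi.

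Far below additive, the typical gene was highest in RNAi or in xrn1 and low in xrn1 RNAi. PRP39 (YML046W, chromosome XIII, 181474 to 183363 of R64, plus strand) encodes a component of the U1 small nuclear ribonucleoprotein, which recognises the 5′ splice site. Its value was 6.02 in xrn1 RNAi and 716 in RNAi, against 60.8 in xrn1 and 67 in WT. Loss of XRN1 alone left it nearly where it was (log2 difference -0.13), while in cells with DCR1 and AGO1 it fell by 6.29 on the log2 scale. Added changes would give 652 in xrn1 RNAi, and the interaction was -6.16 (-7.29 to -6.21 without a pseudocount), the lowest of all.

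NHP6A (YPR052C, chromosome XVI, 665693 to 665974 of R64, minus strand) encodes an HMG-box chromatin protein. It had 23.0 in xrn1 RNAi and 344 in RNAi, against 109 in xrn1 and 27 in WT. Each change alone went with a higher value, and both together with a value close to that of WT, so the interaction was -5.62 (-6.56 to -5.31 without a pseudocount). In R64, 187 of its 282 bases overlap YPR053C, and reads from the overlap could belong to either. The same pattern, high with either change alone and lower with both, was found in TKL1 (YPR074C), the transketolase of the pentose phosphate pathway, and in EDE1 (YBL047C), an endocytosis scaffold. TKL1 had 84.0 in xrn1 RNAi and 735 in RNAi, against 314 in xrn1 and 98 in WT (interaction -4.73). EDE1 had 110 in xrn1 RNAi and 849 in RNAi, against 244 in xrn1 and 79 in WT (interaction -4.50).

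SHB17 (YKR043C), sedoheptulose bisphosphatase, which feeds the pentose phosphate pathway, had 182 in xrn1 RNAi and 923 in RNAi, against 220 in xrn1 and 61 in WT, an interaction of -4.12. SSA1 (YAL005C), a cytosolic Hsp70 chaperone, had 4.27 in xrn1 RNAi and 71.5 in RNAi, against 116 in xrn1 and 56 in WT, an interaction of -4.34. VMA4 (YOR332W), a subunit of the vacuolar proton pump, had 7.32 in xrn1 RNAi and 24.5 in RNAi, against 247.5 in xrn1 and 35 in WT, an interaction of -4.11. SSA1 and VMA4 were lowest in xrn1 RNAi, SHB17 lowest in WT. The rest of the 12 lowest were PGI1, phosphoglucose isomerase (-4.08), PIS1, phosphatidylinositol synthase (-3.90), TIF11, the initiation factor eIF1A (-3.70), ENT4, an epsin-like protein (-3.68), and TAF8, a TFIID subunit (-3.67), and all 5 were lower in xrn1 RNAi than in RNAi and higher in xrn1 than in WT.

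**Figure D2:**
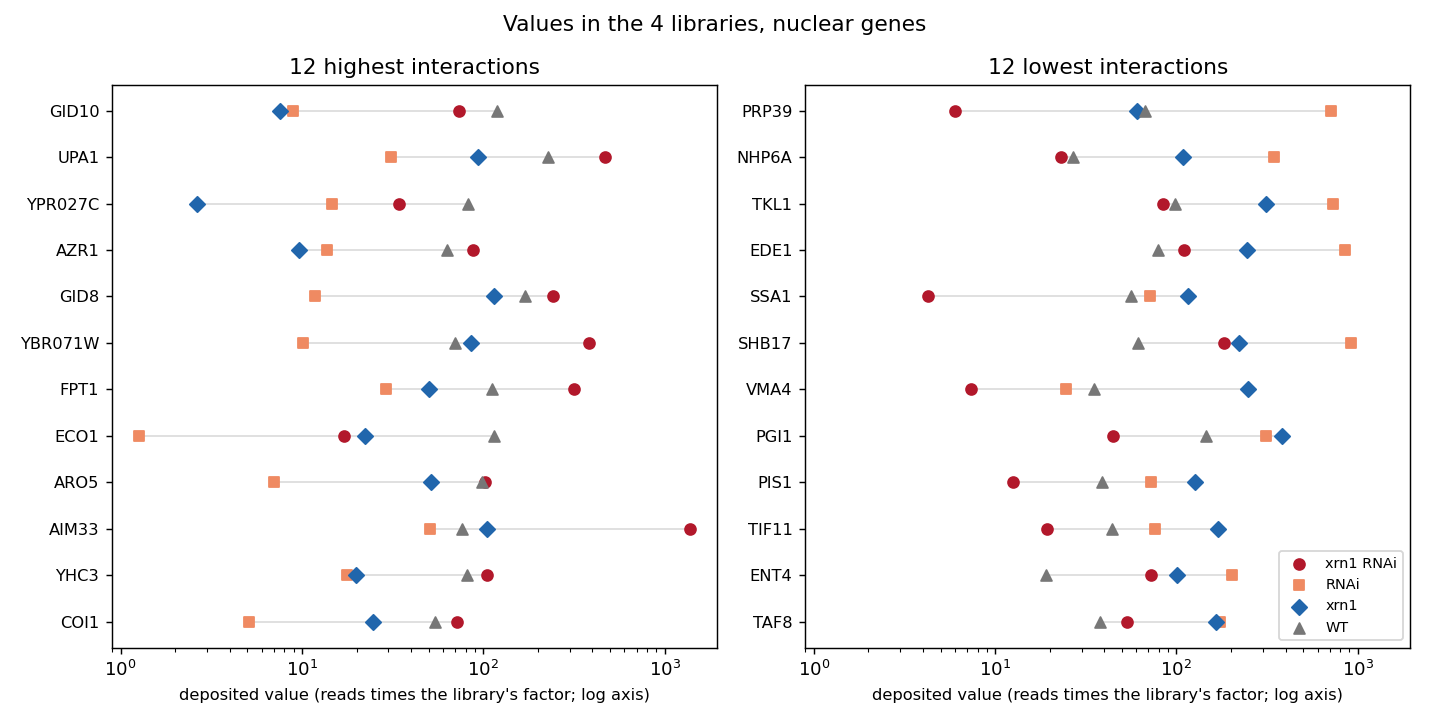
Deposited values of the 12 nuclear genes with the highest and the 12 with the lowest interaction, on a log axis; each symbol is 1 library, and the grey line spans the 4 values. On the left, RNAi or xrn1 has the lowest value in every gene; on the right, RNAi or xrn1 has the highest, and PRP39 has 6.02 in xrn1 RNAi and 716 in RNAi.

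Upstream sequences are shown for ECO1, described above, and for SMK1 and RFC4, from the meiosis and replication genes described below, because known elements of meiotic and S phase genes stand in them. The sequences are the bases from 250 to 101 before the start codon, read from RefSeq's R64 assembly by the gene's identifier, with matches to 2 motifs in capitals: GGCGGC, the core of the URS1 element bound by Ume6, a repressor of meiotic genes, and ACGCGT, the MCB element of genes expressed in S phase. Both strands were searched, so that a match may also read GCCGCC. ECO1 (VI:207202-207351, plus strand) holds 1 match to each, SMK1 (XVI:666030-666179, plus strand), a mitogen-activated protein kinase gene of sporulation, holds a URS1 core, and RFC4 (XV:142656-142805, minus strand), a subunit of the replication clamp loader, holds an MCB element.
ECO1: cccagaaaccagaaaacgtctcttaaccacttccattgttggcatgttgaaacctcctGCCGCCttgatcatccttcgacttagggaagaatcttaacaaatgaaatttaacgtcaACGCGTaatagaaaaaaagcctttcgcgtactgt
SMK1: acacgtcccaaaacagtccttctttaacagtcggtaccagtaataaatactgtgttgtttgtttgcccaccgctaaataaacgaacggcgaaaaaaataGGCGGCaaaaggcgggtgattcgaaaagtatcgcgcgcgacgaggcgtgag
RFC4: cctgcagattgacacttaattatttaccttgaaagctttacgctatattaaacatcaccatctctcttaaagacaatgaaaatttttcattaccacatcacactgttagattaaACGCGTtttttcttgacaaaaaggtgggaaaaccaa

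The URS1 core of SMK1 also lies upstream of NHP6A, whose transcription runs the other way. Within 250 bases before to 50 after the start codon, GGCGGC was found in 5.20% of 5769 genes, in 12 of the 30 meiosis genes, in 5.61% of genes with an interaction of 1 or more and in 3.89% of those of -1 or less. ACGCGT was found in 3.17% of all genes, in 10 of the 28 replication genes, in 3.58% of genes with an interaction of 1 or more and in 2.55% of those of -1 or less. TGACTC, the core bound by the amino acid regulator Gcn4, was searched as well and was in 8.18% of all genes and in 38 of 75 amino acid synthesis genes, and in 8.72% and 6.89% of genes in the positive and negative direction. Each motif's share among genes with an interaction of 1 or more was thus within 1 percentage point of its share among all genes. Among genes of -1 or less, GGCGGC and TGACTC were more than 1 point below their shares among all genes. Over counted genes alone, from which the called genes come, GGCGGC was in 4.73%, ACGCGT in 3.26% and TGACTC in 8.32%. Against these shares GGCGGC among genes of -1 or less was within 1 percentage point, and only TGACTC was more than 1 point below. These differences were not tested. A match is not a measured binding site.

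Most cytosolic ribosomal protein, translation factor and glycolysis genes lay below additive. Of 137 cytosolic ribosomal protein genes 136 were counted, and 4 were above by 2-fold or more and 79 below, against 23.2% and 24.4% of all genes; their median was -1.12 relative to nuclear genes. Deletion of XRN1 went with higher values for 106 of them in cells without DCR1 and AGO1 (median log2 difference 1.50) and for 20 in cells with them (median 0.25), with 1 lower. Over nuclear genes these medians were 0.50 without and 0.46 with DCR1 and AGO1. The median gene of the list had a value of 6.25 in xrn1 RNAi and 4.92 in RNAi, close to the pseudocount, against 210 in xrn1 and 76.5 in WT. Among the 90 with 10 or more reads in every library, 3 were above and 53 below, against 933 and 1039 of all 4111 such genes. RPP1A, an acidic protein of the ribosomal stalk, had 15.7 in xrn1 RNAi and 34 in RNAi, against 459 in xrn1 and 71 in WT (interaction -3.62). RPL15A had 12.4 in xrn1 RNAi and 18.4 in RNAi, against 826 in xrn1 and 145 in WT (-2.95). In the other direction RPL35B had 27.9 in xrn1 RNAi and 4.45 in RNAi, against 55.5 in xrn1 and 71 in WT (2.37), and RPS18A 46.1 in xrn1 RNAi and 1.59 (5 reads) in RNAi, against 355 in xrn1 and 164 in WT (2.27). Many ribosomal protein genes have near-identical copies, and how reads shared between copies were counted is not known.

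Translation factors showed the same direction, with 0 above and 15 below of 25 counted, against 23.2% and 24.4% of all genes (relative median -1.21). TEF4, a subunit of elongation factor 1B whose gene holds a small nucleolar RNA in R64, had 24.7 in xrn1 RNAi and 59.1 in RNAi, against 508 in xrn1 and 157 in WT (-2.83). Of 17 glycolysis genes 0 were above and 12 below (relative median -1.95). In cells without DCR1 and AGO1, 13 were higher on loss of XRN1 and 1 lower. In cells with them, 1 was higher and 4 lower. The list's median log2 difference was 2.02 for xrn1 over WT and -0.34 for xrn1 RNAi over RNAi, against 0.50 and 0.46 over nuclear genes. CDC19, the pyruvate kinase of glycolytic growth, had 258 in xrn1 RNAi and 730 in RNAi, against 1627 in xrn1 and 370 in WT (-3.62). PYK2, the second pyruvate kinase, had 13.7 in xrn1 RNAi and 21.3 in RNAi, against 45.6 in xrn1 and 105 in WT, an interaction of 0.62 that was the highest of the list's genes over the mean of 31.8. Fermentation genes were split, 3 above and 2 below of 8 (37.5% and 25%). PDC1, the main pyruvate decarboxylase, had 112 in xrn1 RNAi and 452 in RNAi, against 1395 in xrn1 and 454 in WT (-3.59). ADH2, the alcohol dehydrogenase of ethanol consumption, had 152 in xrn1 RNAi and 13.3 in RNAi, against 16.9 in xrn1 and 13 in WT (2.93).

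Gluconeogenesis, glyoxylate cycle and hexose uptake genes lay above additive. Of 8 gluconeogenesis and glyoxylate genes 6 were above and 1 below, against 23.2% and 24.4% of all genes (relative median 1.94). MDH2, cytosolic malate dehydrogenase, had 390 in xrn1 RNAi and 33.4 in RNAi, against 86.9 in xrn1 and 65 in WT (3.03). ICL1, isocitrate lyase, was the exception, with 2532 in xrn1 RNAi and 4809 in RNAi, against 204 in xrn1 and 114 in WT (-1.75). Of 18 hexose transporter and sensor genes 11 were counted, 7 above and 0 below (relative median 1.98). HXT2 had 1335 in xrn1 RNAi and 180 in RNAi, against 266 in xrn1 and 284 in WT (2.96), and HXT3 had 349 in xrn1 RNAi and 57.5 in RNAi, against 117 in xrn1 and 125 in WT (2.63). Both changed little on loss of XRN1 alone (log2 difference -0.09 in each) and were highest in xrn1 RNAi. The sensor gene RGT2 had 1637 in xrn1 RNAi and 2631 in RNAi, against 183 in xrn1 and 333 in WT, and its changes added up (0.17). HXT genes share near-identical stretches, so values of single members are uncertain.

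Meiosis and sporulation genes were above additive in 17 and below in 4 of 30, against 23.2% and 24.4% of all genes (relative median 1.57). Most calls on loss of XRN1 came from cells without DCR1 and AGO1: 16 were lower in xrn1 than in WT and 0 higher, while 4 were higher and 6 lower in xrn1 RNAi than in RNAi. The median log2 difference was -1.15 without DCR1 and AGO1 and -0.08 with them, against 0.50 and 0.46 over nuclear genes. The median gene of the list had 15.9 in xrn1 RNAi and 8.42 in RNAi, against 5.78 in xrn1 and 21 in WT. Since many values were low, the counts are uncertain: 15 genes had 10 or more reads in every library, of which 8 were above and 4 below. Of all 4111 genes with such reads, 933 were above and 1039 below. DIT1, a spore wall gene, had 38.5 in xrn1 RNAi and 48.9 in RNAi, against 12.9 in xrn1 and 90 in WT (2.21). ZIP2, a synaptonemal complex gene with the antisense transcript RME3 annotated over 1905 of its 2115 bases, whose reads may be mixed with its own, had 99.9 in xrn1 RNAi and 51.1 in RNAi, against 24.5 in xrn1 and 63 in WT (2.18). SMK1 went the other way, with 78.0 in xrn1 RNAi and 826 in RNAi, against 4.30 (13 reads) in xrn1 and 21 in WT (-1.66). Without the pseudocount its interaction was -1.115, with a counting interval of -2.19 to 0.01. UME6, the gene of the repressor that binds URS1, had 8.84 in xrn1 RNAi and 83.8 in RNAi, against 34 in xrn1 and 73 in WT (-1.82).

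**Figure D3:**
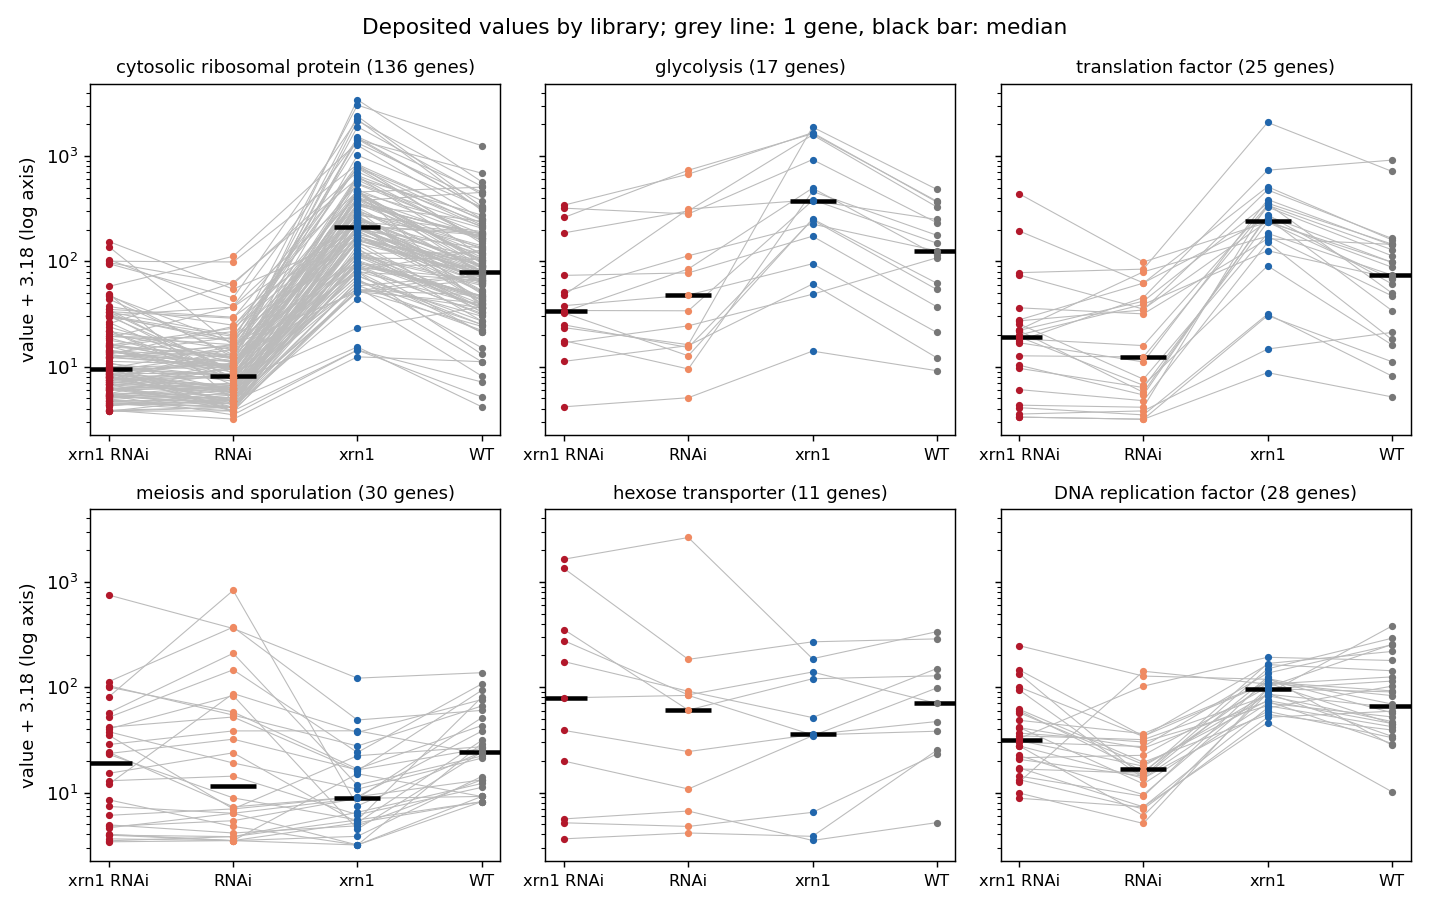
Values plus the pseudocount of 3.18 on a log axis for 6 gene lists; each grey line joins the 4 libraries of 1 gene and the black bar is the list's median in that library. Ribosomal protein, glycolysis and translation factor genes have their highest median in xrn1, and their medians in xrn1 RNAi and RNAi are within 2-fold of each other; meiosis genes have their lowest median in xrn1, and hexose transporter genes have their highest in xrn1 RNAi.

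DNA replication factors were above additive in 13 and below in 2 of 28, against 23.2% and 24.4% of all genes (relative median 0.96). Their median log2 difference was 0.94 for xrn1 RNAi over RNAi and 0.41 for xrn1 over WT, against 0.46 and 0.50 over nuclear genes. POL3, the catalytic subunit of DNA polymerase delta, had 27.9 in xrn1 RNAi and 14.6 in RNAi, against 83.3 in xrn1 and 377 in WT (2.94). RFC4, whose upstream sequence is shown above, had 90.9 in xrn1 RNAi and 10.5 in RNAi, against 55.8 in xrn1 and 30 in WT (1.95). The exceptions were RFC1, the large clamp loader subunit, with 9.38 in xrn1 RNAi and 138 in RNAi, against 104 in xrn1 and 122 in WT (-3.27), and POL2, the catalytic subunit of polymerase epsilon (-1.76). RFC4 and RFC1, subunits of 1 complex, thus departed in opposite directions. A larger pseudocount, 31.8, made these relative medians smaller, at 0.50 for replication, 0.44 for meiosis, 0.92 for gluconeogenesis and 0.79 for hexose transporter genes, and that of hexose transporters was 0.24 with all 18 genes counted.

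The GID ubiquitin ligase and the pentose phosphate pathway were listed after the values of GID10, GID8, TKL1 and SHB17 had been seen, so those genes lend no weight to the counts. Of 9 GID genes 4 were above (GID10, GID8, VID30 with 3.25 and FYV10 with 3.20) and 2 below (VID28 with -1.79 and GID7 with -1.46). Over all genes the shares were 23.2% above and 24.4% below. FYV10 had 3 reads in RNAi, and the median of the GID list was -0.03 relative to nuclear genes. VID30 had 38.9 in xrn1 RNAi and 19.1 in RNAi, against 52.9 in xrn1 and 279 in WT. Of 12 pentose phosphate genes 5 were below: TKL1, SHB17, the glucose-6-phosphate dehydrogenase gene ZWF1 (-2.47), RPE1 (-1.33) and SOL3 (-1.26). GND2 (1.91) and SOL4 (1.48, with 1 read in RNAi) were above.

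Heat shock and chaperone genes were above in 2 and below in 9 of 21 (relative median -0.77). SSA2, another Hsp70 gene and a close copy of SSA1, had 8 in xrn1 RNAi and 43.2 in RNAi, against 252 in xrn1 and 97 in WT (-3.40), and HSP30, a plasma membrane protein, had 64.7 in xrn1 RNAi and 10.8 in RNAi, against 32.4 in xrn1 and 48 in WT (2.81). Amino acid synthesis genes were above in 12 and below in 29 of 75 (-0.66), from the cystathionine gamma-lyase gene CYS3 (-3.05) to the histidine synthesis gene HIS6 (2.10). Phosphate response genes were above in 1 and below in 7 of 20 counted (-0.54), the lowest being VTC3, a subunit of the polyphosphate synthase (-3.09). Cell wall and flocculin genes were above in 7 and below in 15 of 35 (-0.51). SUN4 had 1299 in xrn1 RNAi and 78.4 in RNAi, against 237 in xrn1 and 97 in WT (2.73), and FLO11, a flocculin gene, had 28.4 in xrn1 RNAi and 179 in RNAi, against 9.58 in xrn1 and 6 in WT (-3.00). Proteasome subunits were above in 3 and below in 12 of 34 (-0.52), and PUP2, with 397 in xrn1 RNAi and 37.5 in RNAi, against 241 in xrn1 and 199 in WT, was the highest of them (3.03). Medians this near 0 depended on the setting: that of cell wall genes was -0.10 after thinning to the same total reads over genes, that of phosphate genes -0.28 with a pseudocount of 31.8 and that of proteasome genes -0.29 with one of 0.318.

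Lists of RNA decay genes, the process in which XRN1 acts, were close to all genes or below them. Decapping and 5′ to 3′ decay genes were above in 1, which was XRN1 itself, and below in 7 of 20, against 23.2% and 24.4% of all genes (relative median -0.47). RAT1, the nuclear counterpart of XRN1, had 86.5 in xrn1 RNAi and 256 in RNAi, against 163 in xrn1 and 146 in WT (-1.69), and PAT1, a decapping activator, had 7.47 in xrn1 RNAi and 10.5 in RNAi, against 130 in xrn1 and 46 in WT (-1.80). Nonsense-mediated decay genes were above in 1 and below in 3 of 5, and exosome, TRAMP and Nrd1 genes above in 2 and below in 5 of 24 (-0.33), a share below that does not exceed the 24.4% of all genes. RRP6, the nuclear exosome nuclease, had 21.6 in xrn1 RNAi and 57.5 in RNAi, against 118 in xrn1 and 78 in WT (-1.87). These values are of small RNA over the genes and not of the proteins' mRNA.

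Of the nuclear lists not yet named, 17 had a relative median within 0.5 of 0. Their counts stand against 23.2% above and 24.4% below over all genes. The lists comprised mitochondrial ribosomal proteins (10 above and 10 below of 54), ribosome assembly (8 and 10 of 49), nuclear pore and mRNA export (5 and 7 of 30), the nuclear-encoded respiratory chain (7 and 6 of 27), iron uptake (3 and 9 of 26), pre-mRNA splicing genes named PRP (6 and 4 of 23), amino acid and ammonium permeases (5 and 6 of 23), ergosterol synthesis (2 and 2 of 23), mating (5 and 7 of 20 counted), ATP synthase (3 and 4 of 20), peroxisomal fatty acid oxidation (5 and 3 of 19), the tricarboxylic acid cycle (4 and 1 of 13), RNA polymerase II (3 and 2 of 12), RNase P and MRP (4 and 2 of 11), and glycine cleavage and one-carbon genes (2 and 3 of 10). Histone genes (1 and 4 of 10) and purine, uracil and thiamine permeases (2 and 3 of 10) complete the 17. On loss of XRN1, 8 of 10 histone genes were 2-fold or more higher in each background. Their median log2 difference was 1.24 with DCR1 and AGO1 and 1.37 without, against 0.46 and 0.50 over nuclear genes. Of the 3 histone genes with 10 or more reads in every library, 0 were above additive and 1 below, against 933 and 1039 of all 4111 such genes. With a mean value of 31.8 or more required, the medians of mating genes (-1.01) and of RNase P and MRP genes (0.71) left that range. A median near 0 did not mean uniform members: QCR9, a subunit of respiratory complex III, had 99.7 in xrn1 RNAi and 7.62 in RNAi, against 196 in xrn1 and 322 in WT (3.96), and POP4, a subunit of RNase P and MRP, had 188 in xrn1 RNAi and 4.13 (13 reads) in RNAi, against 86.9 in xrn1 and 36 in WT (3.51). Galactose genes were above in 4 and below in 2 of 10; their relative median was 0.74, and -0.53 over the 7 with a mean value of 31.8 or more.

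**Figure D4:**
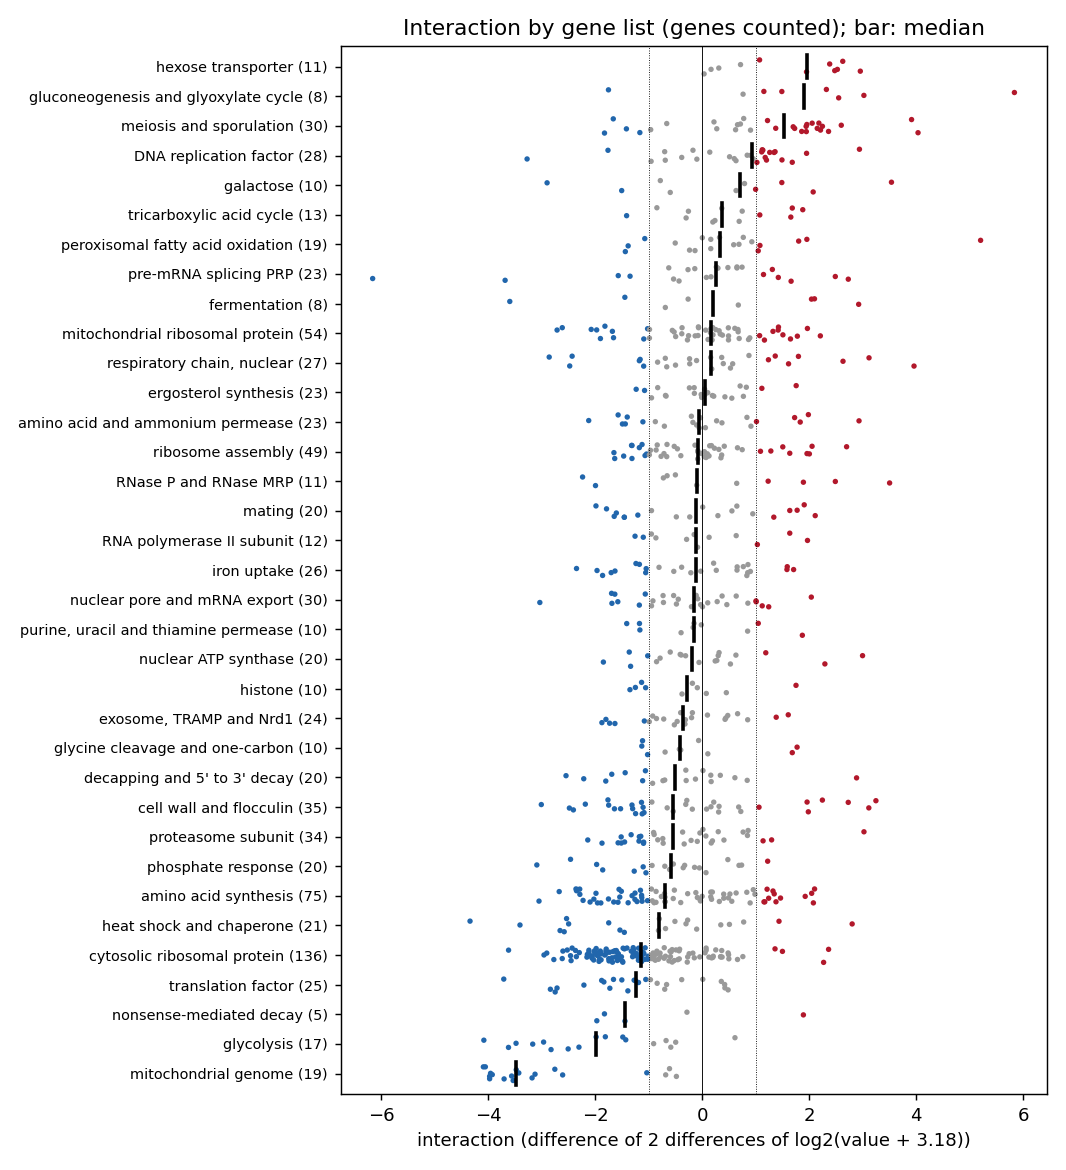
Interaction of every counted gene in the 35 lists with counted nuclear or mitochondrial genes, ordered by the list's median (black bar); the number counted stands beside each name, dotted lines mark 1 and -1, and genes of few reads are included. Hexose transporter and gluconeogenesis genes lie mostly to the right, ribosomal protein, translation factor, glycolysis and mitochondrial genome genes mostly to the left.

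Genes of the mitochondrial genome were below additive in 16 and above in 0 of 19, against 24.4% and 23.2% of all genes. Their relative median was -3.44 (-1.84 with a pseudocount of 31.8). AI4, a reading frame nested in COX1, had 30.9 in xrn1 RNAi and 309 in RNAi, against 48380 in xrn1 and 26060 in WT (-4.09). All 16 were also 2-fold or more lower in xrn1 RNAi than in RNAi, whereas 5 of the 19 were higher in xrn1 than in WT. The counts include nested frames that share reads, and the share of mitochondrial reads in a library moves all of them together. The 4 identifiers of the 2-micron plasmid had 0 or 1 read in both libraries with DCR1 and AGO1, so their interaction reflects the change in cells without these genes alone.

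Genes that lie beside each other showed little correlation of the interaction. Among adjacent protein-coding genes of R64 whose mean values both reached 31.8, Pearson correlations were 0.17 over 673 convergent pairs, 0.03 over 667 divergent pairs and 0.06 over 1287 pairs in tandem. The median difference between neighbours, in size, was 1.20 for convergent, 1.26 for divergent and 1.36 for tandem pairs. The opposite-strand pairs that differed most included COI1 (4.21), which lies 307 bases from the convergent mRNA export gene YRA1 (-3.03). YRA1 had 44.0 in xrn1 RNAi and 67.6 in RNAi, against 749 in xrn1 and 135 in WT, and COI1 had 71.4 in xrn1 RNAi and 5.08 in RNAi, against 24.8 in xrn1 and 54 in WT. EDE1 (-4.50) and PSY4 (1.72), divergent genes 383 bases apart, YCX1 (3.62) and HEM3 (-2.77), convergent at 297 bases, and YHP1 (2.42) and PPN1 (-3.36), divergent at 696 bases, also departed in opposite directions. PPN1, a polyphosphatase gene, had 224 in xrn1 RNAi and 2309 in RNAi, against 171 in xrn1 and 170 in WT, so it was high in RNAi alone.

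Gene length and introns, which the choice of genes did not use, were set against the interaction over nuclear genes with a mean value of 31.8 or more. With genes divided by length into 4 groups of nearly equal number, from the shortest to the longest, the share of genes above additive was 26.2%, 28.1%, 21.3% and 14.2%, and the median interaction -0.02, 0.09, -0.03 and -0.27. The longest group, with 2232 bases or more, thus had the lowest share above. The 165 genes with an intron had a median of -0.54, against -0.04 for 3698 without. Without the ribosomal protein genes the 91 left with an intron had a median of -0.01, and among ribosomal protein genes the 38 without an intron had -1.66, against -1.01 for 74 with one. Over all counted genes, without that filter on the mean, genes above additive had a median mean value of 45.5 and those below 67.0.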

How the data were processed

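RNA of 10 to 40 nucleotides was purified on a gel or a fractionating device and made into Illumina small RNA libraries, per the labels' protocols. The submitters' processing notes name cutadapt and Bowtie. Of versions, genome build, annotation, strand, multiply mapped reads and library scaling, nothing is given in the sources used here. In the deposited table WT has raw counts of reads. RNAi, xrn1 and xrn1 RNAi have a deposited signal, whole reads times a factor for each library: 100% of values were whole multiples to a tolerance of 1e-06, and reads were recovered by division. Values are not divided by gene length.

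The interaction is (xrn1 RNAi over RNAi) minus (xrn1 over WT) in log2(value + 3.18), the pseudocount being the 10th percentile of non-zero values. Genes with 1 library at 3.18 or more were counted. Intervals of single interactions are exact conditional odds ratio intervals of the reads, scaled to deposited values and without a pseudocount. No test of the interaction is possible with 1 library per genotype. Because reads were recovered, an additive model (DCR1 AGO1, XRN1 deletion) was added after the values had been examined and fitted with edgeR 4.0.16 (R 4.3.3). Its quasi-likelihood test on 5584 genes with 1 residual degree of freedom called 1136 higher and 1025 lower for DCR1 and AGO1, and 25 higher and 21 lower for XRN1 deletion, at an FDR of 0.05. It does not test the interaction, because its 1 residual degree of freedom is the interaction itself. Departures from additivity thus serve as its error term, in place of variation between replicates. The counts it called are limited by that. Counting was tested on simulated data.

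R64 (RefSeq) gave symbols, positions and neighbours; 5789 identifiers matched and 9 did not. The table's build is unknown. Genes, lists and rules were chosen with earlier results of these data known, and 2 lists and the motifs after values were seen. The stress response element and the Gcr1 and Rap1 cores were also searched and then dropped; they are not reported here. Named were the 12 highest and 12 lowest nuclear interactions at a mean value of 31.8 or more, 6 genes of each opposite-direction class, XRN1, the 2 highest and 2 lowest members of described lists, and 6 neighbour pairs; not all are printed. Settings tried were pseudocounts of 0.318 and 31.8, no filter, a mean value filter, division by library or nuclear sums, size factors, and thinning to 627607 reads. Python 3.11.15 with numpy 2.4.6, pandas 2.3.3 and scipy 1.17.1 was used.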

Additional observations from a re-analysis of the deposited data

Results flagged for a closer look

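These genes were marked because loss of XRN1 moved them 2-fold or more in opposite directions in the background with DCR1 and AGO1 and in the background without. With 1 library per genotype the difference between backgrounds was not tested. Higher in xrn1 RNAi than in RNAi and lower in xrn1 than in WT were GID10 (interaction 6.16), UPA1 (5.05), YPR027C (4.95), AZR1 (4.80), FPT1 (4.42), ECO1 (4.40), YHC3 (4.23), COI1 (4.21), FYV8 (4.19) and YJL193W (3.72). YJL193W had 78.4 in xrn1 RNAi and 18.7 in RNAi, against 43.0 in xrn1 and 160 in WT. Lower in xrn1 RNAi than in RNAi and higher in xrn1 than in WT were NHP6A (-5.62), TKL1 (-4.73), EDE1 (-4.50), SSA1 (-4.34), SHB17 (-4.12), VMA4 (-4.11), PGI1 (-4.08), PIS1 (-3.90), TIF11 (-3.70), ENT4 (-3.68) and TAF8 (-3.67). PIS1 had 12.6 in xrn1 RNAi and 72.7 in RNAi, against 127 in xrn1 and 39 in WT, and TAF8 had 53.4 in xrn1 RNAi and 173 in RNAi, against 166 in xrn1 and 38 in WT.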

How the results depend on the processing

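All 24 genes with the highest and lowest interactions stayed at 2 or more in size in their direction under the 8 other settings, at 2.01 to 6.91 for the highest and -2.27 to -6.68 for the lowest. These genes were chosen as the extremes of the same values. The settings without a filter and with the mean value filter change only which genes are counted, so they could not move a single gene's value. Counts over all genes moved more. With a pseudocount of 31.8, 557 genes were above additive and 887 below, and genes with opposite changes numbered 13 (higher with DCR1 and AGO1) and 15 (lower with them). With a pseudocount of 0.318 the nuclear median was 0.1166 and the first opposite class held 125 genes. Division by the library sum gave 1993 above, 773 below, a nuclear median of 0.504 and opposite classes of 176 and 25; division by the nuclear sum gave a median of 0.3783 and classes of 146 and 33. Size factors gave a median of -0.1555. With a mean value of 31.8 or more the first class held 47 genes, and the galactose relative median reversed to -0.5341, fewer genes being counted. For the scaling and pseudocount the cause was not tested beyond their construction. After thinning to the same total reads over genes, which leaves reads over nuclear genes unequal, 1118 of 1342 genes above and 1188 of 1396 below were shared with the counts above. No paired analysis was possible because each genotype has 1 library and the labels give no replicate numbers. Genes with 10 or more reads numbered 5454 in xrn1 RNAi, 4380 in RNAi, 5390 in xrn1 and 5057 in WT; few reads limit the precision of the other genes, and total depth does not order these counts, since RNAi had 1801407 reads and WT 627607.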
